A study of Mus musculus with 8 samples.

Results

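Genes of cholesterol and fatty acid synthesis were followed in a mouse leukemia driven by MLL-AF9, an oncogenic fusion protein made of parts of MLL and AF9. The 35 genes were chosen by pathway, as genes of sterol and fatty acid synthesis, uptake and efflux under the transcription factors SREBP and LXR. Of these, 34 had a probe set with a single gene symbol, among 18193 genes measured in that way, and Acat2 was not analysed here. Each gene is represented by its brightest such probe set over the 8 arrays, and all levels below are log2 of the deposited intensity.

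Total RNA was measured on 8 Affymetrix arrays in 4 groups of 2. Cells carrying a hairpin labelled as directed at Sirt1, which encodes an NAD-dependent deacetylase, were kept for 21 days in EPZ4777 at 3 µM, which blocks the histone methyltransferase DOT1L, or in the solvent DMSO. Cells carrying a hairpin against luciferase (shLUC), which has no mouse target, were kept for 6 days in the same dose of EPZ4777 or in DMSO. All groups shared the MLL-AF9 fusion and a culture medium that held 15% serum, SCF at 20 ng/ml and both IL-3 and IL-6 at 10 ng/ml. How long the DMSO cultures ran is not stated, and hairpin and time in EPZ4777 cannot be told apart. Titles carry a code, A1 or A5 for shSirt1 and A4 or D11 for shLUC, and each code has an EPZ4777 and a DMSO array. What a code stands for is not stated, nor are separate cultures, so the p-values cover the spread between these arrays alone, and that spread may be technical.

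The median of log2 intensity over all probe sets lay between 5.21 and 5.27 on the 8 arrays. Sirt1 itself was at 57.8% of the shLUC mean in A1 in EPZ4777 and at 56.6% in DMSO, but at 106% and 102% in A5, so the A1 and A5 arrays are called cells labelled shSirt1. Of 6 leukemic identity genes, Mpo lay between 12.75 and 13.56, Ptprc between 11.54 and 12.63 and Hoxa9 between 12.17 and 12.83 on all arrays. Kit lay between 8.58 and 9.71, and Spi1 was at 8.36 in A1 in DMSO and at 8.98 to 9.87 on the other 7 arrays. Both were higher in EPZ4777 in every code, Spi1 by 0.18 to 0.69 and Kit by 0.02 to 0.96. Meis1, a partner of Hoxa9 in this leukemia, lay between 3.62 and 5.26 in EPZ4777, against 6.91 to 7.93 in DMSO. The array of A1 in DMSO stood apart. Adipoq, the adipocyte hormone adiponectin, was at 10.63 there and at 3.48 to 4.06 on the other 7 arrays, and all 5 adipocyte markers measured were highest there, a place held by 13.7% of all genes. Results of cells labelled shSirt1 in DMSO are therefore also given by code. In bulk RNA, fewer cells of a type and less RNA per cell cannot be told apart.

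Animal cells make cholesterol from acetyl-CoA through mevalonate, farnesyl diphosphate and squalene. SREBP-2, encoded by Srebf2, turns on the genes of this pathway when sterol in the endoplasmic reticulum is low, and SREBP-1, encoded by Srebf1, acts more on fatty acid genes. Scap carries the SREBP precursors to the Golgi for cleavage, and the Insig proteins hold Scap back when sterol is high. Oxysterols activate LXR, which turns on the efflux transporters Abca1 and Abcg1 and Mylip, a ubiquitin ligase that sends the LDL receptor to degradation.

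The regulatory sequence next to a few of these genes is printed below as an example. RefSeq gave 34 promoter windows (GRCm38.p6, from 250 bases before to 50 after a gene's start) for 26 of the 34 genes. Both strands were searched for the letters TCACNCCAC, a core of the sterol element bound by SREBP, for CCAAT, bound by NF-Y, and for CACGTG, an E-box. Searched letters that were found are in capitals below, and sequences run 5′ to 3′ on the gene's strand. Insig1 is shown as a classic SREBP target with a CCAAT box and an E-box, Hmgcs1 as the only member window with the sterol core letters, and Tmem97 and Insig2 because their levels changed with EPZ4777 in opposite directions. For Insig2, which has 3 windows, the one farthest downstream is given. The windows are chr5:28071162-28071461 on the plus strand for Insig1, chr13:119690101-119690400 on the plus strand for Hmgcs1, chr11:78550686-78550985 on the minus strand for Tmem97 and chr1:121327629-121327928 on the minus strand for Insig2.
Insig1: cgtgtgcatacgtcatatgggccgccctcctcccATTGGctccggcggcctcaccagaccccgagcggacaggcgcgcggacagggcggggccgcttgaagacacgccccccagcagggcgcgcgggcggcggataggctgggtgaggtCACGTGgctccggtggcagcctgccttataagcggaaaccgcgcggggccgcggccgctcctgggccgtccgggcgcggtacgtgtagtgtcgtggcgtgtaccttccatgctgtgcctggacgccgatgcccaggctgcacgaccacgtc
Hmgcs1: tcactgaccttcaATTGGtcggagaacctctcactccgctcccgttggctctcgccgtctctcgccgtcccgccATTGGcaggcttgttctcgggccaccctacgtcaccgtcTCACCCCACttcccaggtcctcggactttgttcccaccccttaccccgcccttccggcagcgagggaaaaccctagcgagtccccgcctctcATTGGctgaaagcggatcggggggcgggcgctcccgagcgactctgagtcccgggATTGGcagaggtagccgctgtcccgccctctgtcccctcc
Tmem97: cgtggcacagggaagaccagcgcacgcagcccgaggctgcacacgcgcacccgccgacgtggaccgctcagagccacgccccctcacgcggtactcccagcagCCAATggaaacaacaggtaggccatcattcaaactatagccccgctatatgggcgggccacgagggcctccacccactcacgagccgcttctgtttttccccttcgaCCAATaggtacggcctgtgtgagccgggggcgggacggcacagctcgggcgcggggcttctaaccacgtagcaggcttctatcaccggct
Insig2: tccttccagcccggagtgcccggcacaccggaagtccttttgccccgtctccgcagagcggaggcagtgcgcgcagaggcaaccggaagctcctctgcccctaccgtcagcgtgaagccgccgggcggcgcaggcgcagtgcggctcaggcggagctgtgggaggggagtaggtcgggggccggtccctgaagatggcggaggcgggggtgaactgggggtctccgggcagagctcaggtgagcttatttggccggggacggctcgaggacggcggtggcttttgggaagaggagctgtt
The sterol core letters stood in 1 of the 34 windows of the members (2.94%), against 1.24% of all 32851 windows. CCAAT or its complement stood in 22 of 34 windows (64.7%), against 37.4% of all windows. CACGTG stood in 7 of 34 (20.6%), against 7.15%, in windows of Abca1, Dhcr7, Hsd17b7, Insig1, Sc5d and Scap. The Insig2 window printed here holds none of the searched letters, while another Insig2 window farther upstream holds CCAAT or its complement. A match describes letters in a window and not a bound site.

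In shLUC cells after 6 days of EPZ4777 the cholesterol efflux transporter Abcg1 and the SREBP inhibitor Insig2 rose, and Tmem97, a sterol-responsive membrane protein of the endoplasmic reticulum, fell. These 3 of 34 members passed by limma (8.82%), at a threshold of 0.05 on p-values adjusted by the Benjamini-Hochberg method, beside 724 of 18193 genes, or 3.98%. The other 31 did not pass, with adjusted p from 0.0931 upward. The member median was -0.17 log2, beside -0.0025 over all genes, and 22 of 34 members had a negative difference, beside 50.4% of all genes. With the code as a block, which compares the EPZ4777 and DMSO arrays within a code, 7 of 34 members passed, 3 higher and 4 lower, beside 7.23% of all genes. Those added were Mylip (higher) and the sterol enzymes Lss, Cyp51 and Hsd17b7 (lower). With the code as a random block instead, 6 of 34 passed (17.6%), beside 13.1% of all genes. Mylip was again higher, Lss (adjusted p = 0.0734), Cyp51 (0.173) and Hsd17b7 (0.126) did not pass, and Mvk (0.0474) and Ebp (0.0448) were lower. Abcg1, Insig2 and Tmem97 passed in all 3 fits.

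In cells labelled shSirt1, 21 days of EPZ4777 gave 0 of 34 members past the threshold, beside 0.396% of all genes by limma. At an unadjusted p under 0.05 there were 3 members, Fdps and Abcg1 higher and Acaca lower, beside 15.8% of all genes. With the code as a block the count was 0 members, beside 2.22% of genes. The member median was -0.16 log2, beside 0.01 over all genes, and 23 of 34 differences were negative, beside 48.1% of all genes. The median turned to 0.084 without the DMSO array of A1 or the EPZ4777 array of A5.

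Averaged over both hairpins, the EPZ4777 comparison passed for 2 of 34 members (5.88%), Abcg1 higher and Tmem97 lower, beside 10.9% of all genes. With the code as a block 9 of 34 passed (26.5%), beside 16.1% of genes. Of these 9, Abcg1, Insig2 and Mylip were higher, and Tmem97, Idi1, Lss, Elovl6, Insig1 and Cyp51 were lower. With the random block 7 passed (20.6%), beside 20.4% of genes, namely Abcg1, Insig2 and Fdps (higher) and Tmem97, Mvk, Ebp and Acaca (lower). The member median was -0.16 log2, beside 0.0051 over all genes. Considered by code, 10 of 34 members were lower in EPZ4777 in all 4 codes (29.4%), beside 19.6% of all genes, and 3 were higher (8.82%), beside 18.7%. The lower ones were Mvk, Idi1, Lss, Ebp, Insig1, Tmem97, Scd2, Acaca, Elovl6 and Fads1, and the higher ones were Mvd, Fdps and Abcg1. The averaged comparison uses all arrays of the comparisons within each hairpin, and is not independent of them.

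**Figure D1:**
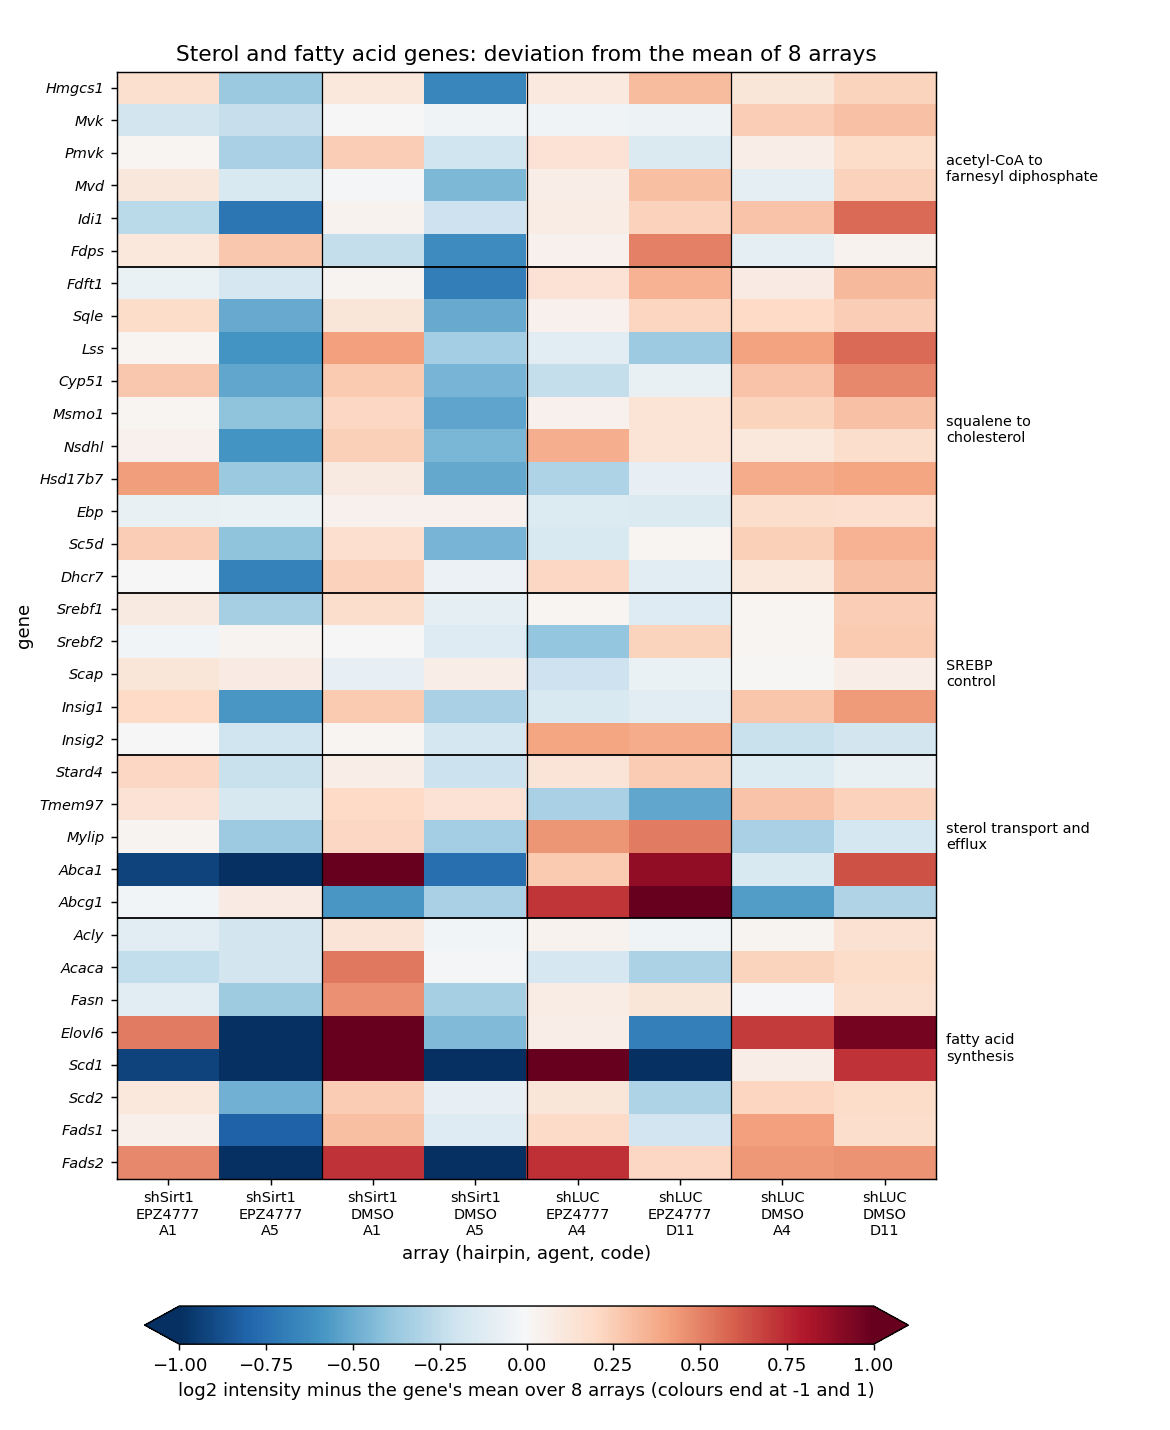
Deviation of each of the 34 measured members from its own mean over the 8 arrays, in log2 units with colours clipped at -1 and 1, ordered by role, with EPZ4777 left of DMSO within each hairpin. Most sterol enzymes have their lowest value in an A5 column, and Elovl6 and the fatty acid desaturases have theirs in the A5 column in EPZ4777. Abcg1 is at its highest in the A4 and D11 columns in EPZ4777.

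Among the genes of sterol efflux, uptake and transport, Abcg1, which exports cholesterol from the cell to HDL, had the largest difference of any member called. In cells labelled shSirt1 its log2 level was 8.46 in A1 and 8.56 in A5 in EPZ4777, against 7.90 and 8.16 in DMSO. The level in shLUC cells was 9.20 in A4 and 9.48 in D11 in EPZ4777, against 7.92 and 8.18 in DMSO. The EPZ4777 and DMSO arrays did not overlap in either hairpin. The share of all genes without such overlap was not computed, here or for the members below, so it describes these arrays only. The difference was 0.48 ± 0.157 (SE, adjusted p = 0.232, limma, 2 arrays against 2) in cells labelled shSirt1, and 1.29 ± 0.157 (adjusted p = 0.0250), a fold of 2.44, in shLUC cells. Averaged over both hairpins it was 0.88 ± 0.111 (adjusted p = 0.0121), and higher in 4 of 4 codes. A second Abcg1 probe set differed by 0.98 in shLUC cells, with an adjusted p of 0.0526 over probe sets. Without the DMSO array of A4 the shLUC difference was 1.16 (adjusted p = 0.215), without that of D11 1.42 (0.194) and without the EPZ4777 array of D11 1.15 (0.122), and the averaged difference lost its call without the DMSO array of A4 (0.82, adjusted p = 0.0701) or of D11 (0.95, 0.0594).

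Tmem97, also known as the sigma-2 receptor and linked to LDL uptake, moved the other way. Cells labelled shSirt1 had a level of 10.02 in A1 and 9.72 in A5 in EPZ4777, against 10.08 and 10.02 in DMSO. The shLUC cells had 9.55 in A4 and 9.36 in D11 in EPZ4777, against 10.16 and 10.11 in DMSO. The shLUC arrays in EPZ4777 all lay below those in DMSO, while the A1 array in EPZ4777 and the A5 array in DMSO had the same level to 2 decimals. The difference was -0.18 ± 0.136 (adjusted p = 0.555, limma) in cells labelled shSirt1, -0.68 ± 0.136 (adjusted p = 0.0466), a fold of 1.60 downward, in shLUC cells, and -0.43 ± 0.096 (adjusted p = 0.0381) averaged, lower in 4 of 4 codes. The shLUC call was kept only without the EPZ4777 array of A1 or of A5 (adjusted p = 0.0476 for each). It was lost without the EPZ4777 array of A4 (-0.78, adjusted p = 0.0511), that of D11 (-0.58, 0.205), the DMSO array of A4 (-0.65, 0.257), that of D11 (-0.70, 0.218), and that of A1 or A5 (-0.68, 0.0668 for each). The averaged call was lost without the EPZ4777 array of D11 (adjusted p = 0.109) or A5 (0.106) and without the DMSO array of A4 (0.137), D11 (0.120), A1 (0.0913) or A5 (0.0801). With quantile normalization it stood at adjusted p = 0.0643 in shLUC cells and 0.0530 averaged.

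Mylip, the LXR target that marks the LDL receptor for degradation, had a level of 8.25 in A1 and 7.86 in A5 in EPZ4777, against 8.44 and 7.89 in DMSO, in cells labelled shSirt1. Its shLUC levels were 8.67 in A4 and 8.75 in D11 in EPZ4777, against 7.90 and 8.05 in DMSO. The shLUC arrays did not overlap between agents, and those of cells labelled shSirt1 did. The difference was -0.10 ± 0.207 in cells labelled shSirt1 (adjusted p = 0.838) and 0.73 ± 0.207 in shLUC cells (adjusted p = 0.0931, 0.0313 with the code as a fixed block and 0.0279 as a random one). Averaged it was 0.31 ± 0.146 (adjusted p = 0.221, 0.0444 with the fixed block and 0.0880 with the random one).

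Abca1, which loads cholesterol onto lipid-poor apolipoprotein, did not pass in any comparison. For cells labelled shSirt1 its level was 5.19 in A1 and 4.999 in A5 in EPZ4777, against 7.27 and 5.36 in DMSO. It was 6.37 in A4 and 6.99 in D11 in EPZ4777, against 5.96 and 6.74 in DMSO, in shLUC cells. The highest of these 8 values belongs to the A1 array in DMSO with adipocyte transcripts. Stard4, which carries cholesterol between membranes, had a difference of 0.06 ± 0.169 in cells labelled shSirt1 (adjusted p = 0.882) and of 0.29 ± 0.169 in shLUC cells (adjusted p = 0.387).

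**Figure D2:**
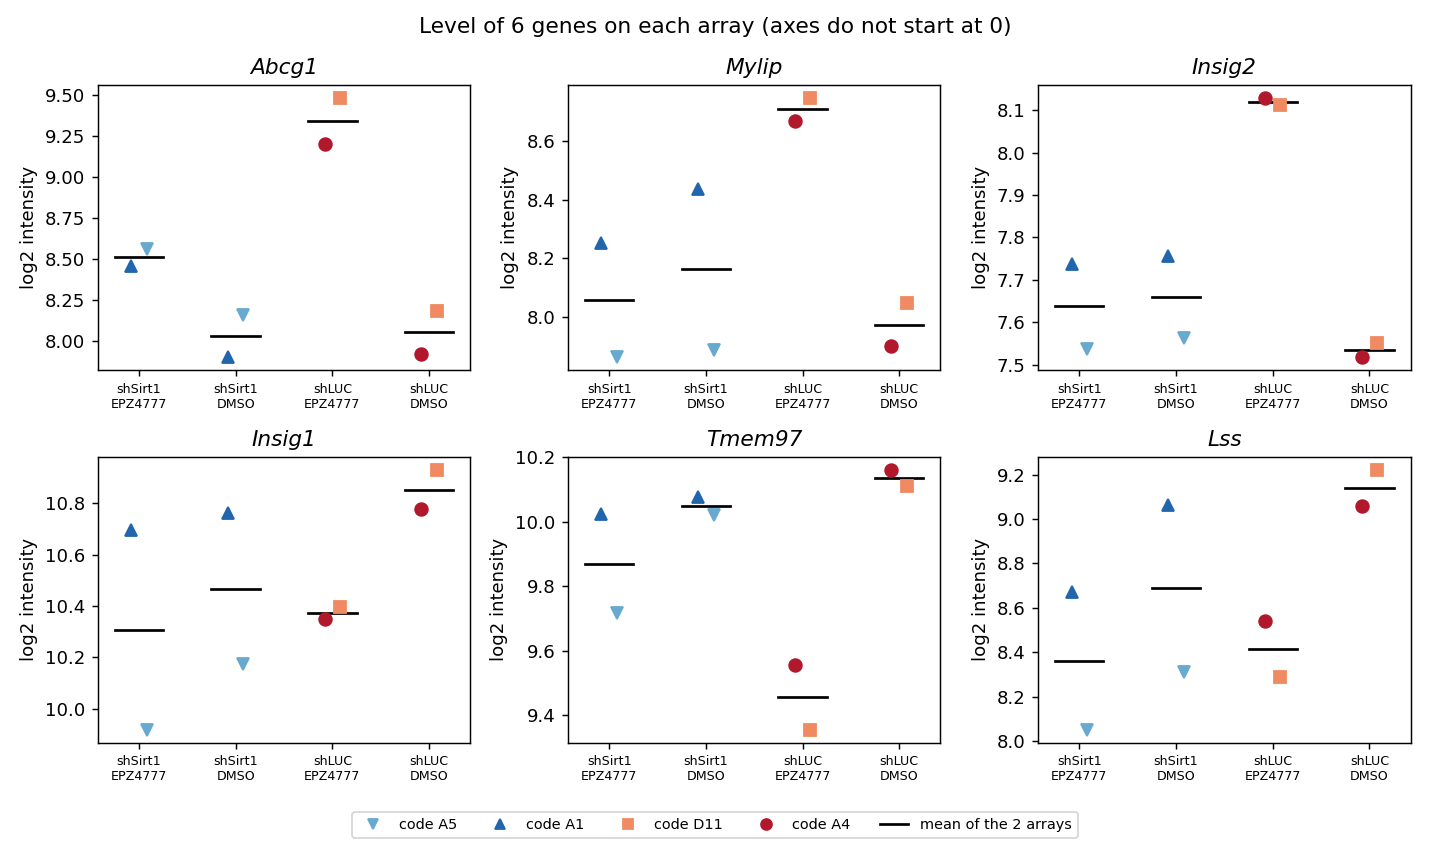
Log2 intensity of Abcg1, Mylip, Insig2, Insig1, Tmem97 and Lss on each of the 8 arrays, 1 point an array, with cells labelled shSirt1 left of shLUC cells and EPZ4777 left of DMSO. Bars are the means of 2 arrays. In shLUC cells the EPZ4777 points of Abcg1 (9.20 and 9.48), Mylip (8.67 and 8.75) and Insig2 (8.13 and 8.11) lie above the DMSO points, and those of Tmem97 (9.55 and 9.36) and Lss (8.54 and 8.29) lie below them.

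Among the SREBP regulators, the Insig genes had differences of opposite sign in shLUC cells. Insig2 had a level of 7.74 in A1 and 7.54 in A5 in EPZ4777, against 7.76 and 7.56 in DMSO, in cells labelled shSirt1. It had 8.13 in A4 and 8.11 in D11 in EPZ4777, against 7.52 and 7.55 in DMSO, in shLUC cells. Within a code of cells labelled shSirt1 the agents thus differed by at most 0.03, and A5 lay below A1 in both agents. The difference was -0.02 ± 0.119 (adjusted p = 0.946, limma) in cells labelled shSirt1 and 0.59 ± 0.119 (adjusted p = 0.0473), a fold of 1.502, in shLUC cells. Averaged it was 0.28 ± 0.084 (adjusted p = 0.0782, 0.0491 with the fixed block and 0.0275 with the random one). The other 2 probe sets of Insig2 were also higher in shLUC cells, by 0.80 (adjusted p over probe sets 0.0435) and 0.33 (0.392). Leaving out any of the 8 arrays ended the shLUC call with a difference between 0.57 and 0.60. Its adjusted p was 0.259 without the DMSO array of A4, 0.226 without that of D11, 0.186 without the EPZ4777 array of D11, 0.0810 without that of A4, 0.0592 without the DMSO array of A1 or A5, and 0.0566 without the EPZ4777 array of A1 or A5.

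Insig1, itself turned on by SREBP, had a level of 10.70 in A1 and 9.92 in A5 in EPZ4777, against 10.76 and 10.17 in DMSO, in cells labelled shSirt1. In shLUC cells it had 10.35 in A4 and 10.40 in D11 in EPZ4777, against 10.78 and 10.93 in DMSO. It was lower in EPZ4777 in 4 of 4 codes, and A5 lay below the other codes in both agents. The difference was -0.16 ± 0.280 in cells labelled shSirt1 (adjusted p = 0.814), -0.48 ± 0.280 in shLUC cells (adjusted p = 0.391) and -0.32 ± 0.198 averaged (adjusted p = 0.359, 0.0470 with the fixed block and 0.172 with the random one). Srebf1, Srebf2 and Scap had differences of -0.16, 0.06 and 0.11 in cells labelled shSirt1, and none passed. Their differences in shLUC cells were -0.19 ± 0.178, -0.22 ± 0.203 and -0.17 ± 0.109, with adjusted p from 0.428 to 0.627.

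The 16 sterol enzymes measured did not pass in any EPZ4777 comparison of group means by limma, and 5 of them had an unadjusted p under 0.05 in the averaged one, where 27.4% of all genes did. Their median EPZ4777 difference was -0.03 in cells labelled shSirt1, -0.16 in shLUC cells and -0.15 averaged. In shLUC cells 11 of 16 were negative and 5 positive. The 6 early enzymes, from acetyl-CoA to farnesyl diphosphate, had a median of -0.05 in shLUC cells with 3 of 6 negative, and the 10 late enzymes, from squalene to cholesterol, had -0.24 with 8 of 10 negative. These are counts of sign, and 50.4% of all genes were negative in that comparison.

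Among the early enzymes, differences of both signs were found. Mvk, mevalonate kinase, had a level of 7.15 in A1 and 7.10 in A5 in EPZ4777, against 7.33 and 7.30 in DMSO, in cells labelled shSirt1, and 7.29 in A4 and 7.28 in D11 in EPZ4777, against 7.57 and 7.62 in DMSO, in shLUC cells. The agents did not overlap in either hairpin, and the averaged difference was -0.25 ± 0.067 (adjusted p = 0.0596, limma). Fdps, which makes farnesyl diphosphate, stood on the other side, with 12.05 in A1 and 12.22 in A5 in EPZ4777, against 11.71 and 11.32 in DMSO, in cells labelled shSirt1. In shLUC cells Fdps had 11.99 in A4 and 12.45 in D11 in EPZ4777, against 11.85 and 11.98 in DMSO. It was higher in EPZ4777 in 4 of 4 codes, and its averaged difference was 0.46 ± 0.137 (adjusted p = 0.0764). Another probe set of Fdps had the opposite sign in at least 1 of the EPZ4777 comparisons within a hairpin or averaged, as was the case for Idi1, Mvd, Hmgcs1, Msmo1, Sc5d and Fdft1 among the sterol enzymes. The Fdps one had a mean level of 2.40, below the lower quartile of all probe sets on every array (3.75 or higher). That of Msmo1 was at 5.49, while those of Idi1 and Mvd were brighter, at 10.39 and 8.43.

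Idi1, which isomerises isopentenyl diphosphate, was high on all arrays. It had a level of 11.19 in A1 and 10.73 in A5 in EPZ4777, against 11.49 and 11.25 in DMSO, in cells labelled shSirt1, and 11.53 in A4 and 11.69 in D11 in EPZ4777, against 11.74 and 12.03 in DMSO, in shLUC cells. All 4 codes were lower in EPZ4777, and the averaged difference was -0.34 ± 0.132 (adjusted p = 0.149, 0.0430 with the fixed block and 0.0548 with the random one). Hmgcs1, Mvd and Pmvk, which make HMG-CoA and carry mevalonate toward isopentenyl diphosphate, had averaged differences of 0.10, 0.17 and -0.15, with adjusted p of 0.801, 0.505 and 0.550.

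Lss, lanosterol synthase, had the most negative difference of the 16 sterol enzymes in shLUC cells and averaged. Its level was 8.67 in A1 and 8.05 in A5 in EPZ4777, against 9.06 and 8.31 in DMSO, in cells labelled shSirt1. In shLUC cells it was 8.54 in A4 and 8.29 in D11 in EPZ4777, against 9.06 and 9.22 in DMSO. All 4 codes were lower in EPZ4777, and in cells labelled shSirt1 the agents overlapped, with A5 below A1 in both. The difference was -0.33 ± 0.287 in cells labelled shSirt1 (adjusted p = 0.612), -0.72 ± 0.287 in shLUC cells (adjusted p = 0.202, and 0.0442 with the fixed block) and -0.52 ± 0.203 averaged (adjusted p = 0.150, 0.0276 with the fixed block and 0.0522 with the random one).

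Ebp, the sterol isomerase, varied least within a group. Its level was 10.05 in A1 and 10.06 in A5 in EPZ4777, against 10.16 and 10.17 in DMSO, in cells labelled shSirt1, and 9.99 in A4 and 9.98 in D11 in EPZ4777, against 10.30 and 10.29 in DMSO, in shLUC cells. The agents did not overlap in either hairpin, and the averaged difference was -0.21 ± 0.066 (adjusted p = 0.0857, limma). Cyp51, lanosterol demethylase, and Hsd17b7, a sterol ketoreductase, are given because they passed only with the code as a fixed block, and in shLUC cells not with it as a random block. Cyp51 differed by -0.02 in cells labelled shSirt1 and by -0.54 ± 0.309 in shLUC cells (adjusted p = 0.387, and 0.0412 with the fixed block). Hsd17b7 differed by 0.23 in cells labelled shSirt1 and by -0.58 ± 0.287 in shLUC cells (adjusted p = 0.306, and 0.0459 with the fixed block). The other 6 late enzymes, Fdft1, Sqle, Msmo1, Nsdhl, Sc5d and Dhcr7, had averaged differences of 0.13, -0.03, -0.10, -0.03, -0.14 and -0.29, and none passed.

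**Figure D3:**
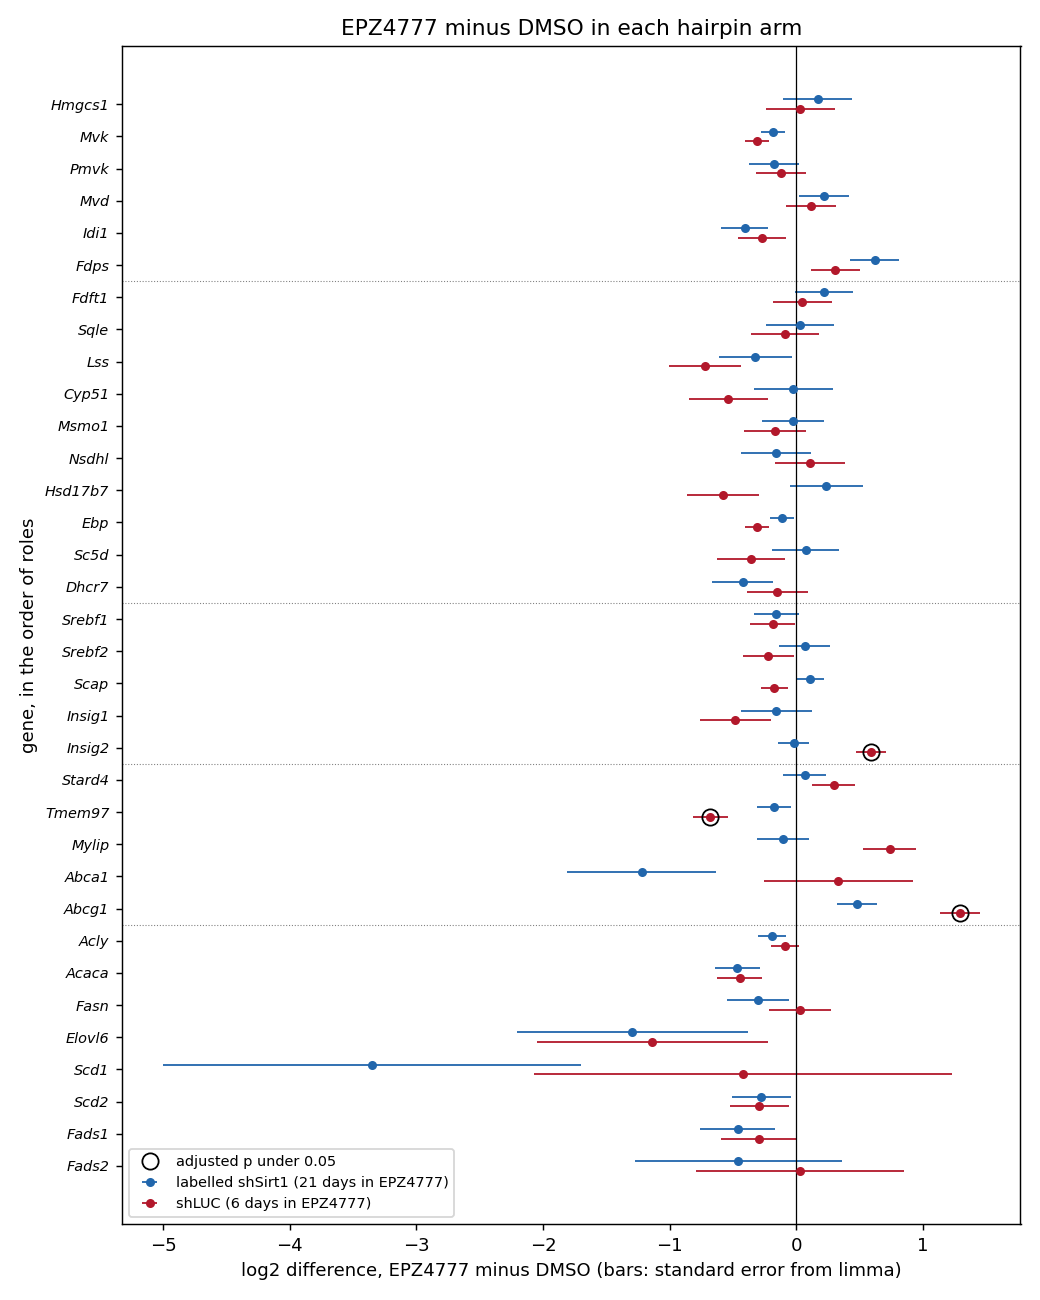
Difference between EPZ4777 and DMSO in log2 units with its limma standard error, for each of the 34 members ordered by role, with cells labelled shSirt1 in blue and shLUC cells in red. Circles mark adjusted p under 0.05, which Abcg1 (1.29), Insig2 (0.59) and Tmem97 (-0.68) reached in shLUC cells and no member reached in cells labelled shSirt1.

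The 8 fatty acid genes all had a negative averaged difference with a median of -0.33, beside 48.8% of all genes negative. Without the DMSO array of A1 the negative ones were 6 and the median -0.24, and without the EPZ4777 array of A5 they were 7 and the median -0.15. The median was -0.52 without the EPZ4777 array of A1 and -0.54 without the DMSO array of A5. None of the 8 passed by limma on group means, and 1 (Acaca) had an unadjusted p under 0.05, beside 27.4% of all genes. Each gene is judged there by its brightest probe set. All other probe sets of these genes also had a negative averaged difference, and none passed after adjustment over probe sets. For Scd2 they differed by -0.90 and -0.80 (unadjusted p = 0.0210 and 0.0214, limma), and for Acly by up to -0.51 (0.00699). Those of Fads1 and Fads2 differed by less than the brightest. Acly, which makes cytosolic acetyl-CoA from citrate, had a level of 11.9995 in A1 and 11.93 in A5 in EPZ4777, against 12.24 and 12.08 in DMSO, in cells labelled shSirt1, and 12.14 in A4 and 12.07 in D11 in EPZ4777, against 12.14 and 12.25 in DMSO, in shLUC cells. The averaged difference was -0.14 ± 0.078 (adjusted p = 0.300). Acaca, the acetyl-CoA carboxylase of fatty acid synthesis, had 8.51 in A1 and 8.57 in A5 in EPZ4777, against 9.28 and 8.74 in DMSO, in cells labelled shSirt1. The shLUC level was 8.58 in A4 and 8.44 in D11 in EPZ4777, against 8.98 and 8.94 in DMSO. The agents did not overlap in either hairpin. The difference was -0.47 ± 0.178 in cells labelled shSirt1 and -0.45 ± 0.178 in shLUC cells, and it was -0.46 ± 0.126 averaged (adjusted p = 0.0623, and 0.0278 with the random block, limma). By code it was -0.77 in A1 and -0.17 in A5. Without the DMSO array of A1, which holds adipocyte transcripts and the highest Acaca level, the difference in cells labelled shSirt1 was -0.20, and without that of A5 it was -0.74.

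Elovl6, which elongates palmitate to stearate, spread widely between codes. Cells labelled shSirt1 had 9.61 in A1 and 6.75 in A5 in EPZ4777, against 10.30 and 8.65 in DMSO. In shLUC cells the level was 9.16 in A4 and 8.41 in D11 in EPZ4777, against 9.79 and 10.05 in DMSO. It was lower in EPZ4777 in 4 of 4 codes, and the averaged difference was -1.22 ± 0.644 (adjusted p = 0.282, 0.0359 with the fixed block and 0.124 with the random one). Fasn, fatty acid synthase, had an averaged difference of -0.14 and Scd2, a stearoyl-CoA desaturase, of -0.28, and the desaturases Fads1 and Fads2 had -0.38 and -0.21, none of which passed.

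Scd1, another stearoyl-CoA desaturase, had the widest spread of the members, and it is given for that. For cells labelled shSirt1 the level was 7.31 in A1 and 5.45 in A5 in EPZ4777, against 12.45 and 7.01 in DMSO. For shLUC cells it was 9.30 in A4 and 7.13 in D11 in EPZ4777, against 8.31 and 8.96 in DMSO. The difference by code was -5.14 in A1, -1.56 in A5, -1.83 in D11 and 0.99 in A4, and the averaged difference was -1.89 ± 1.17 (adjusted p = 0.360). The A1 array in DMSO is the array with adipocyte transcripts. There Fabp4 stood at 13.18, beside 3.88 to 8.36 on the other 7 arrays, and Cidec at 7.88, beside 2.83 to 3.46. Of the 8 stroma markers 6 were highest there, with Col3a1 at 6.92, beside 2.84 to 3.13. Of the 8 fatty acid members 5 were highest there, namely Fasn, Scd1, Scd2, Acaca and Elovl6, and Scd1 by more than 1 log2. In all, 7 of 34 members were highest there (20.6%), beside 13.7% of all genes, and 0.72% of all genes were so by more than 1 log2. The part of these transcripts in the members' differences was not tested. Without both arrays of A1 the member median in cells labelled shSirt1 was -0.12, and without both of A5 it was -0.13.

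**Figure D4:**
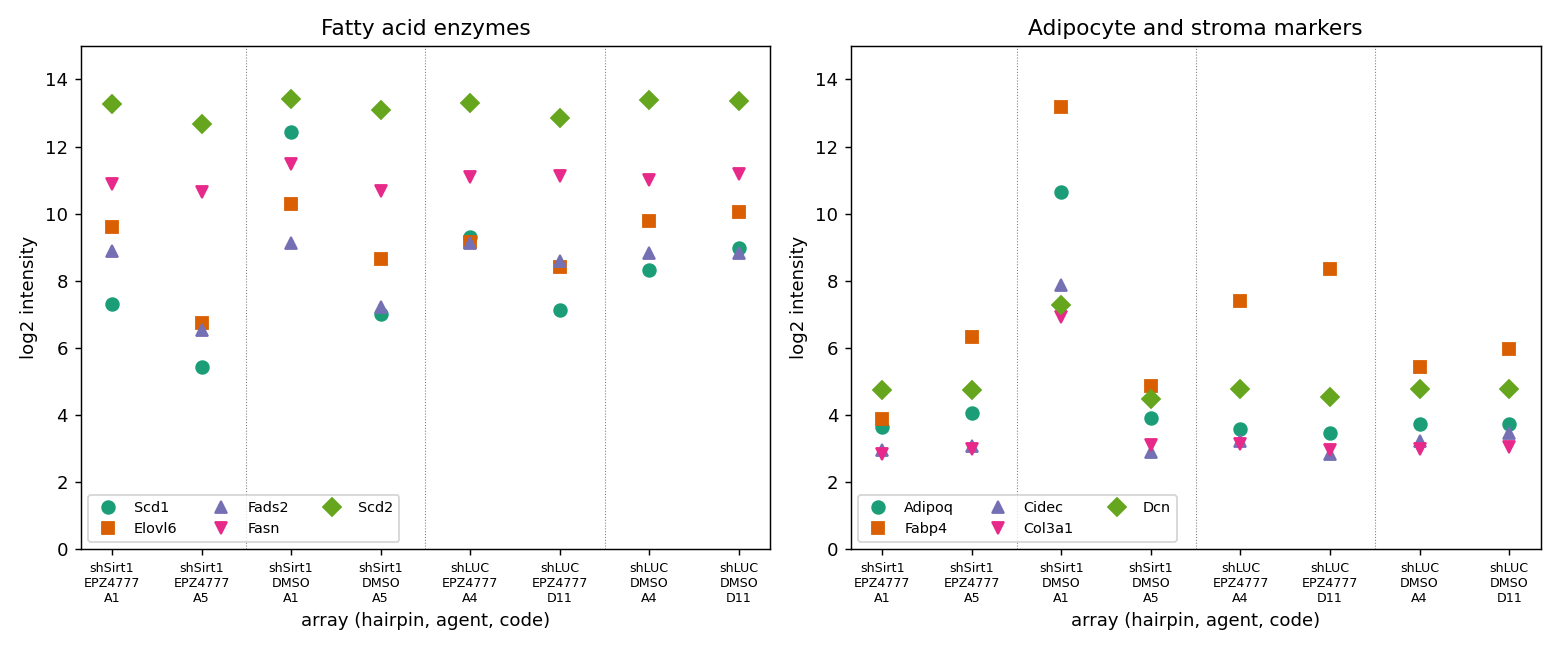
Log2 intensity of Scd1, Elovl6, Fads2, Fasn and Scd2 beside the adipocyte markers Adipoq, Fabp4 and Cidec and the stroma markers Col3a1 and Dcn on each of the 8 arrays, EPZ4777 left of DMSO. The A1 array in DMSO holds Adipoq at 10.63, Fabp4 at 13.18 and Scd1 at 12.45, each above the other 7 arrays.

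The difference of the EPZ4777 effects, cells labelled shSirt1 minus shLUC cells, was called for 0 of 34 members and 0% of 18193 genes by limma. At an unadjusted p under 0.05 there were 4 members, Abcg1, Insig2 and Mylip lower and Tmem97 higher, beside 6.71% of all genes. With the code as a block 0 members passed, beside 0.0165% of genes. The differences of effects were -0.81 ± 0.222 for Abcg1 (unadjusted p = 0.00822, adjusted p = 0.622), -0.61 ± 0.169 for Insig2, -0.84 ± 0.293 for Mylip and 0.50 ± 0.193 for Tmem97. The EPZ4777 effects of these genes were therefore not shown to differ between hairpins.

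Cells labelled shSirt1 after 21 days in EPZ4777 were also set against shLUC cells after 6 days in it, and the 2 groups differ in time as well as in hairpin. By limma 0 of 34 members passed, beside 0.308% of all genes. At an unadjusted p under 0.05 there were 6 members, Abcg1, Insig2, Idi1, Mylip and Abca1 lower and Tmem97 higher, beside 13.3% of all genes. Abcg1 was 0.83 ± 0.157 log2 lower in cells labelled shSirt1 (difference -0.83, adjusted p = 0.0938) and Idi1 differed by -0.65 ± 0.186 (adjusted p = 0.197). In DMSO, where hairpin groups of unstated time were compared, 0 of 34 members and 0% of all genes passed. At an unadjusted p under 0.05 there were Mvk (-0.29 ± 0.095) and Idi1 (-0.52 ± 0.186), both lower in cells labelled shSirt1, beside 5.41% of all genes. All 16 sterol enzymes had a negative difference in DMSO, with a median of -0.42, beside 53.1% of all genes negative and a median of -0.01. Without the DMSO array of A5 they were 13 of 16 with a median of -0.11, and without that of A1 16 of 16 with a median of -0.68. The member median in DMSO was -0.21, and it was -0.47 without the DMSO array of A1 and -0.06 without that of A5. The hairpin comparisons share arrays with the EPZ4777 comparisons.

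Cells of code A5 had lower levels of most members than cells of code A1 in both agents. In EPZ4777 and in DMSO alike, 28 of 34 members were lower in A5 (82.4%), beside 27.8% of all genes, and 11 of 34 were lower by over 0.5 log2 in both (32.4%), beside 1.87%. With 1 array of each code per agent these are counts without a test, and the A1 array in DMSO is the one with adipocyte transcripts. The median A5 minus A1 difference of the 16 sterol enzymes was -0.49 in EPZ4777 and -0.62 in DMSO, beside 0.0087 and 0.02 over all genes. Of these enzymes 14 of 16 were lower in A5 in both agents, the exceptions being Ebp and Fdps. A5 had the lowest level of the 4 EPZ4777 arrays for 14 of 16 enzymes, beside 3922 of all 18193 genes. It had the lowest of the 4 DMSO arrays for 15 of 16 enzymes, beside 4539 of all genes.

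Over the 16 sterol enzymes A5 minus A1 ran from -0.79 to 0.17 in EPZ4777 and from -0.76 to 0.0034 in DMSO. Among the larger differences were -0.79 and -0.73 for Cyp51, -0.69 and -0.62 for Sqle, and -0.62 and -0.75 for Lss. These 3 make successive sterol intermediates. Mvk differed by only -0.05 and -0.03. Among regulators, Insig1 differed most, by -0.78 and -0.59. Fatty acid genes ran from -2.86 to 0.06 in EPZ4777 and from -5.44 to -0.16 in DMSO. Of these, Fads2 differed by -2.33 and -1.90 and Elovl6 by -2.86 and -1.65. For the shLUC codes, D11 minus A4 over the 16 sterol enzymes ran from -0.31 to 0.46 in EPZ4777 and from -0.01 to 0.32 in DMSO. Cycling cell markers differed between A5 and A1 by a median of 0.13 and 0.05, and 1 of 9 was lower in both agents. The codes also differed outside these pathways. The mean log2 level of 11 neutrophil maturation markers was 11.90 in A5 and 10.18 in A1 in EPZ4777, and 8.85 and 7.50 in DMSO. Sirt1 was at 106% of the shLUC mean in A5 and 57.8% in A1 in EPZ4777, and at 102% and 56.6% in DMSO. The part of either in the members' code difference was not tested.

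**Figure D5:**
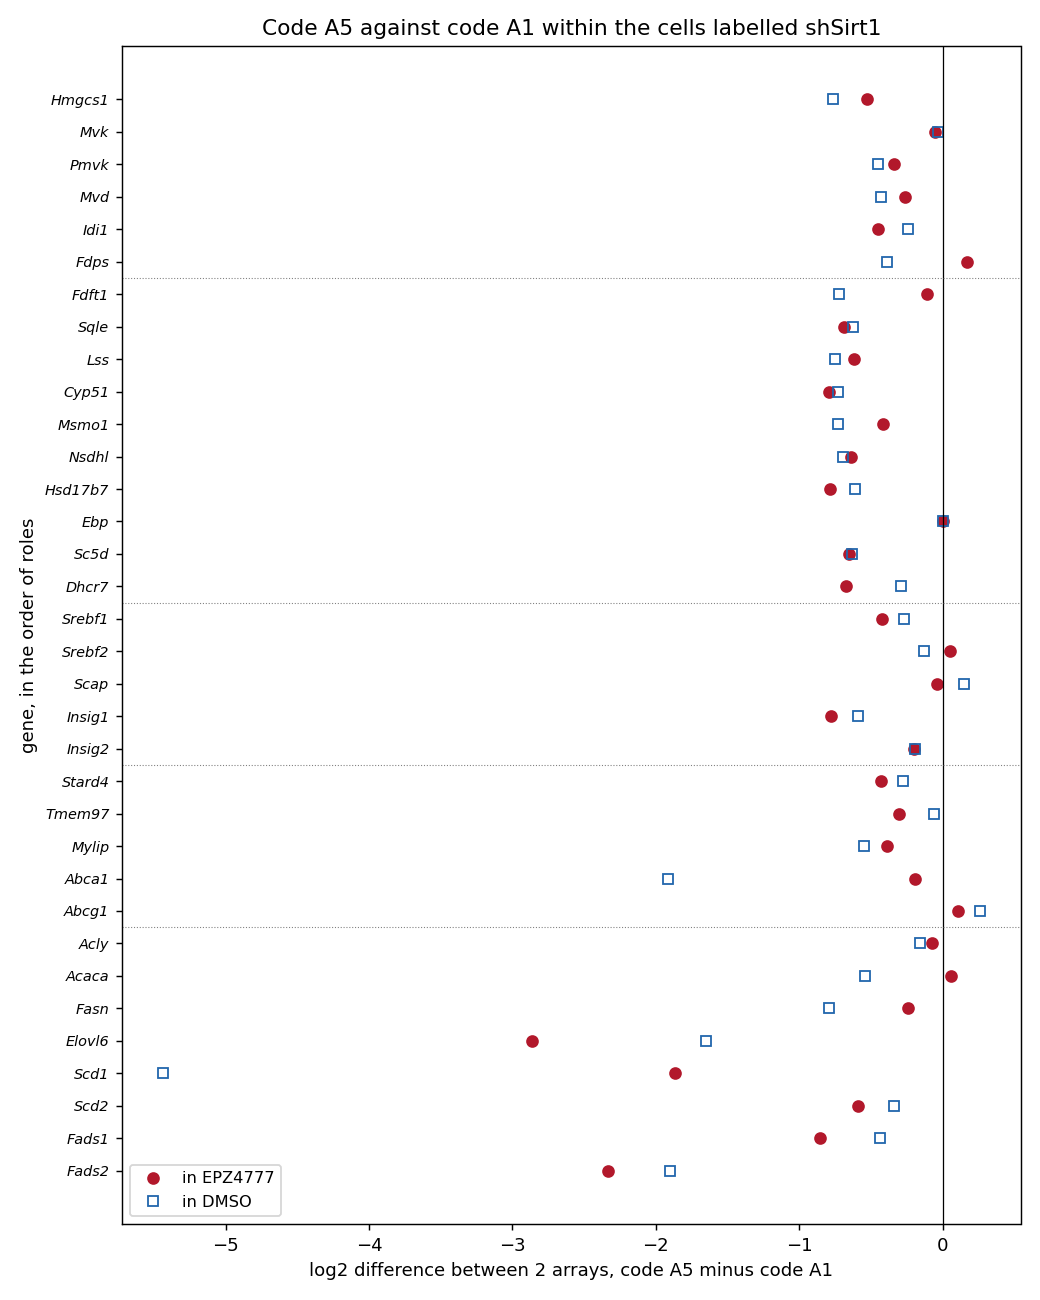
Difference A5 minus A1 in log2 units for each of the 34 members, 1 point in EPZ4777 and 1 in DMSO, ordered by role. For 28 of 34 members both points are below 0, with Elovl6 (-2.86) farthest out in EPZ4777 and Scd1 (-5.44) in DMSO, where the A1 array holds adipocyte transcripts.

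Levels of the sterol enzymes, and of the fatty acid genes, were correlated in pairs across the 8 arrays. Of the 120 pairs among the 16 enzymes 112 had a positive Pearson correlation, with a median r of 0.68, and of the 28 pairs among the 8 fatty acid genes 28 were positive, with a median r of 0.776. These are descriptions over 8 arrays that share hairpin, agent and code, with A5 low in most of these genes. The A1 array in DMSO with adipocyte transcripts was highest for 5 of the 8 fatty acid genes. The share of positive pairs over all genes was not computed, so the counts are not set against a background. Insig1 had a median r of 0.782 with the enzymes and Srebf1 one of 0.708, while Abcg1 had -0.124 and Scap -0.266.

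Other genes of the same pathways, which are not members, were counted in the same fit. Of 10 measured genes of LXR and sterol handling, 2 were higher in the averaged comparison and 0 lower, beside 10.9% of all genes called, namely Ch25h and Nceh1, a cholesterol ester hydrolase. Ch25h, which makes 25-hydroxycholesterol, had levels of 4.93 in A1 and 5.10 in A5 in EPZ4777, against 4.69 and 5.02 in DMSO, in cells labelled shSirt1. In shLUC cells the level was 7.61 in A4 and 6.84 in D11 in EPZ4777, against 4.48 and 4.93 in DMSO. The difference was 0.16 in cells labelled shSirt1 and 2.52 ± 0.273 (adjusted p = 0.0244, limma) in shLUC cells. In EPZ4777, 1 of the 10 genes of LXR and sterol handling was called lower in cells labelled shSirt1 than in shLUC cells, beside 0.308% of all genes. Ch25h had the most negative difference of the 10 there, -2.21. Nceh1 rose by 1.05 ± 0.181 (adjusted p = 0.0218) averaged over both hairpins. Of 13 measured genes of fatty acid activation, elongation and glycerolipid use, 1 was higher in the averaged comparison and 0 lower, a share below those 10.9%, namely Me1, malic enzyme, which supplies NADPH, with 1.53 ± 0.380 (adjusted p = 0.0480). Its level was 8.67 in A1 and 8.63 in A5 in EPZ4777, against 8.07 and 6.17 in DMSO, and 8.14 in A4 and 7.603 in D11 in EPZ4777, against 6.41 and 6.25 in DMSO. Of 7 genes of SREBP processing and the sterol branch 0 passed in any of the 6 comparisons by limma, with 3 at an unadjusted p under 0.05 in the averaged one, beside 27.4% of all genes.

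Markers of mature myeloid cells were counted beside the members. Their lists were chosen with earlier results of these data known, so the counts are descriptions and not independent support. Of 10 macrophage markers 0 were called in cells labelled shSirt1, beside 0.396% of all genes, with 0 at an unadjusted p under 0.05, beside 15.8%. In shLUC cells 6 were higher in EPZ4777, where 3.98% of all genes were called. The summed intensity of the 10 ran from 613 to 866 in EPZ4777, against 579 to 1303 in DMSO, in cells labelled shSirt1. It ran from 3720 to 5359 in EPZ4777, against 2070 to 2565 in DMSO, in shLUC cells. Between the hairpins in EPZ4777, 4 of the 10 were called lower in cells labelled shSirt1, beside 0.308% of all genes. Of 11 neutrophil maturation markers 0 passed by limma in cells labelled shSirt1, beside 0.396% of all genes, with 9 higher at an unadjusted p under 0.05, beside 15.8%. In shLUC cells 3 were higher, beside 3.98% of all genes called, and averaged over both hairpins 7 were higher, beside 10.9%. The neutrophil sum ran from 61098 to 104130 in EPZ4777, against 11501 to 28786 in DMSO, in cells labelled shSirt1, and from 60018 to 101380 in EPZ4777, against 26856 to 35016 in DMSO, in shLUC cells. Marco, a macrophage scavenger receptor, stayed between 3.51 and 4.51 on all arrays, where the lower quartile of all probe sets lay between 3.75 and 3.84. Abcg1, Insig2 and Ch25h were higher in shLUC cells in EPZ4777, as were the macrophage markers called, and the part of maturing cells in the members' differences was not tested.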

How the data were processed

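Per the labels, the 8 samples are arrays of total RNA, 2 in each of 4 groups. The authors deposited linear intensity values from RMA (no version stated), per the submitters' processing notes. RMA shrinks low signals, so small values understate a change. Array number, not depth, limits the precision. Values were converted to log2 without a pseudocount, and dim genes were kept. Of 45101 probe sets 64 are controls, and 34945 have 1 gene symbol, 932 several and 9160 none in the table used. Tests used R 4.3.3 and limma 3.58.1 (lmFit and eBayes on 4 group means over all 8 arrays, 4 residual degrees of freedom, two-sided), with Benjamini-Hochberg adjustment over 18193 genes and a threshold of 0.05. There were 6 comparisons, namely the EPZ4777 effect within each hairpin, its average, its difference between hairpins, and the hairpins against each other in EPZ4777 and in DMSO.

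The codes in the titles join an EPZ4777 and a DMSO array. Over all genes the deviations from the group means correlated between the arrays of a code at 0.293 for shLUC and 0.378 for shSirt1, and over the members at -0.115 and 0.629. Fits with the code as a block (2 residual degrees of freedom) are given where they change a call.

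Values on every array are given for the members called and, up to 12, for those with the smallest unadjusted p in the averaged comparison. Abca1, Scd1 and Insig1 were added after their values were seen, as were Cyp51 and Hsd17b7, for which only group differences are given. Members and lists were chosen with earlier results of these data known. The alternatives were other probe set summaries, dim genes removed, other normalizations and variance priors, fewer arrays (also, chosen after seeing the data, for the sterol enzymes in DMSO, the fatty acid genes and Acaca), the code as a block and another threshold. The test was also run on simulated data with independent noise on each array. These held no code effect and no outlying array, so they cannot show how the calls fare under either.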

Additional observations from a re-analysis of the deposited data

Results flagged for a closer look

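For 6 of 34 members (17.6%), beside 11.2% of all genes, both codes of cells labelled shSirt1 moved one way with EPZ4777 and both shLUC codes the other way. The difference of the EPZ4777 effects, cells labelled shSirt1 minus shLUC, was -0.61 for Insig2, -0.84 for Mylip and -1.55 for Abca1, which were higher in EPZ4777 in the shLUC codes. It was 0.43 for Sc5d, 0.81 for Hsd17b7 and 0.28 for Scap, which were lower in EPZ4777 in the shLUC codes. None passed by limma, with adjusted p from 0.622 for Insig2 to 0.873 for Sc5d and unadjusted p of 0.00854 for Insig2 and 0.0240 for Mylip. In cells labelled shSirt1 the Insig2 differences were small, -0.02 in A1 and -0.03 in A5. For Abca1 the A1 value of -2.08 includes the DMSO array with adipocyte transcripts, and A5 was -0.36. Other probe sets of Insig2, Hsd17b7 and Scap had the same sign of the difference of effects, and Mylip has no other. Those of Sc5d had the opposite sign (-0.72 and -0.54, at mean levels of 4.745 and 6.16). Those of Abca1 had 0.76 and -0.04, at mean levels of 3.57 and 2.92.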

How the results depend on the processing

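No difference of the 12 members given on every array changed sign under any alternative, in shLUC cells or averaged. With the code as a fixed or a random replicate block, the count of members called was 7 or 6 in shLUC cells, against 3, and 9 or 7 averaged, against 2. It left the other counts of members called at 0, and the 2 blocks called partly different genes, named above. The averaged count was 7 with only genes above the median level, 4 with each array centred on its median and 7 at an adjusted p under 0.10. Without both A5 arrays it was 1. The shLUC count was 1 with only the arrays compared and 1 without both A1 or both A5 arrays, where fewer arrays estimate the spread. The count for cells labelled shSirt1 against shLUC in EPZ4777 was 1 at an adjusted p under 0.10 and 1 without both A1 arrays. Leaving out each array in turn gave 0 to 2 members in shLUC cells and 0 to 3 averaged. Without the DMSO array of A4 or of D11 both counts were 0, and 0 genes of all passed in shLUC cells, and without the EPZ4777 array of D11 they were 0 and 1. The member median in cells labelled shSirt1 was -0.15 with quantile normalization, -0.19 with centring, -0.12 without both A1 arrays and -0.13 without both A5 arrays, and between -0.34 and 0.084 with arrays left out, so its sign turned. The averaged median then ran from -0.27 to -0.043 and that of the difference of effects from -0.21 to 0.23, also with both signs. The lone array left in a group was assumed to vary like the others. Why these values moved was not tested.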
